A study of Mus musculus with 8 samples.

Results

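The Dlk1-Dio3 cluster is an imprinted region of mouse chromosome 12, and its expression was described here in the liver of mice fed a standard or an atherogenic diet. Its members were the long non-coding RNAs Meg3 (Gtl2 in the array files), Rian and Mirg, which are expressed from the maternal chromosome, and the protein-coding genes Dlk1, Rtl1 and Dio3, which are expressed from the paternal chromosome. Probes were taken as members by the gene name printed on the array, with older names accepted. This gave 11 of 41174 probes, for 5 of the 6 genes. Rtl1 had no probe under the names searched and was not analysed here.

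Liver RNA came from male wild-type C57BL/6 mice (C57BL/6J in the study's methods), 14 to 17 weeks of age at the start of the diet per the labels. They were administered either standard chow (STD, n = 4) or a high-fat/high-cholesterol atherogenic diet (ATH, n = 4) for 4 weeks. The ATH diet also contained cholic acid, and no mouse carried a transgene or deletion. Each mouse was 1 Agilent whole-genome array, and 72.35% to 77.76% of spots on an array were well above background. The 4 STD arrays lay on 1 slide and the 4 ATH arrays on another, so the effects of slide and of diet cannot be told apart. The liver label fitted the markers: Alb, the main plasma protein made by hepatocytes, was well above background on all 8 arrays, as were the other 7 hepatocyte markers.

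In this cluster a methylated control region between Dlk1 and Meg3 sets which parental chromosome is read: the maternal chromosome yields a long series of non-coding RNAs, whereas the paternal chromosome yields Dlk1, Rtl1 and Dio3. Meg3 is a nuclear long non-coding RNA known for growth restraint and loss in tumours, and Rian and Mirg host small nucleolar RNAs and microRNAs. Dlk1 is a transmembrane protein of the Notch ligand family made by fetal hepatoblasts, Rtl1 is a retrotransposon-derived protein of placenta and muscle, and Dio3 is the deiodinase that inactivates thyroid hormone. The cluster is highly active in fetal liver and is quieter in the adult organ.

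In RefSeq (GRCm38.p6) Meg3 runs from chr12:109540996-109571729, Rian from chr12:109603945-109661716 and Mirg from chr12:109734981-109749458, each annotated as a long non-coding RNA gene. From Dlk1 to Dio3 this annotation covers 828.6 kb and places 58 microRNA hairpins there, with 10 inside Mirg, 3 inside Rian and 1 (Mir770) inside Meg3. The arrays measured long RNAs, and the microRNAs of these hairpins were not analysed here. Array positions are those of the older assembly mm7, in which the member probes lie on chromosome 12 from 106981450 to 107799226. No genome of that assembly was used here, so probes were not placed in exons or introns.

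The probes that carried the largest diet difference and those of the host transcripts downstream are shown so that the measured stretch of each RNA is known. They are 60 bases long and printed 5′ to 3′ as on the array.
Meg3 A_51_P455997: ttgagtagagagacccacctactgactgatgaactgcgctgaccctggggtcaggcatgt
Meg3 A_52_P391505: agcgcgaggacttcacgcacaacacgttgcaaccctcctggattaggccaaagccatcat
Rian A_52_P102630: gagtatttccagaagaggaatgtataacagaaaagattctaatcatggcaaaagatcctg
Mirg A_52_P277415: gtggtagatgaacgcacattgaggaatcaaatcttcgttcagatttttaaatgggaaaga
The first Meg3 probe was listed at chr12:107092697-107092756 in mm7. The second was listed at chr12:107070994-107079479, a span of 8486 bases for a 60-base probe, and began 21.7 kb before the first. The Rian probe was listed at chr12:107172103-107172162 and the Mirg probe at chr12:107261346-107261405.

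The values below are the log2 processed signal minus the 75th percentile of the same array, so that a value of 0 is a signal at that percentile. The cluster was chosen by its values in this same diet contrast (the STD and ATH signals of its probes), so the member values are a description and carry no test. Meg3 was the member with the largest difference. On its brightest probe (A_51_P455997) the scaled log2 signal was 2.15, 2.47, 1.19 and 1.93 in the 4 STD livers, and -1.55, -1.33, -1.80 and -1.82 in the 4 ATH livers. All 8 arrays were well above background, and the lowest STD liver lay above the highest ATH liver. The mean was 1.94 ± 0.55 on the STD diet and -1.63 ± 0.23 on the ATH diet (SD, n = 4 each), a difference of -3.56 (SE 0.26), or 11.8-fold lower Meg3 signal in ATH livers. Before scaling, the processed signal was 2124.3, 2674.6, 1050.1 and 1713.6 in STD livers and 209.7, 220.5, 196.3 and 199.2 in ATH livers, and the groups did not overlap there either. In whole liver, fewer cells of a type and less RNA per cell cannot be told apart.

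The second bright Meg3 probe (A_52_P391505), listed as starting 21.7 kb before the first, gave nearly the same picture. Its scaled log2 signal was 1.10, 1.27, 0.17 and 0.95 in STD livers and -2.73, -2.47, -2.70 and -2.75 in ATH livers. The mean was 0.87 ± 0.49 against -2.66 ± 0.13 (SD, n = 4 each), a difference of -3.53 (SE 0.23), 11.6-fold lower on the ATH diet. The log2 signals of these probes ran in parallel: the first minus the second stayed between 0.90 and 1.20 on every array. STD replicate 3 was the lowest STD liver on both, at 0.75 and 0.70 below the STD mean, whereas the ATH livers lay within 0.49 and 0.28 of each other. By size of decrease these probes ranked 6 and 7 among 31056 detected probes.

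The other 3 Meg3 probes, which lie between them, were dimmer. A_52_P99341 had scaled log2 signals of -4.08, -4.60, -4.64 and -4.86 in STD livers and -5.61, -6.60, -6.55 and -5.86 in ATH livers, a difference of -1.61 (SE 0.26), and was well above background on all 4 STD arrays but only 1 ATH array, so that its ATH mean rests largely on values near background. A_51_P109649 had -3.06, -3.12, -3.63 and -3.55 against -4.51, -4.62, -4.74 and -3.79, a difference of -1.08 (SE 0.23). A_52_P196568 had -2.77, -2.52, -2.79 and -3.25 against -3.31, -3.50, -3.65 and -4.06, a difference of -0.80 (SE 0.21). On each of these 3 probes every ATH liver lay below every STD liver after scaling. Without scaling this held for A_52_P99341 only: the unscaled signal of A_51_P109649 was 50.7 in ATH replicate 4 against 37.2 in STD replicate 3, and that of A_52_P196568 was 61.9 in ATH replicate 1 against 47.2 in STD replicate 4.

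**Figure D1:**
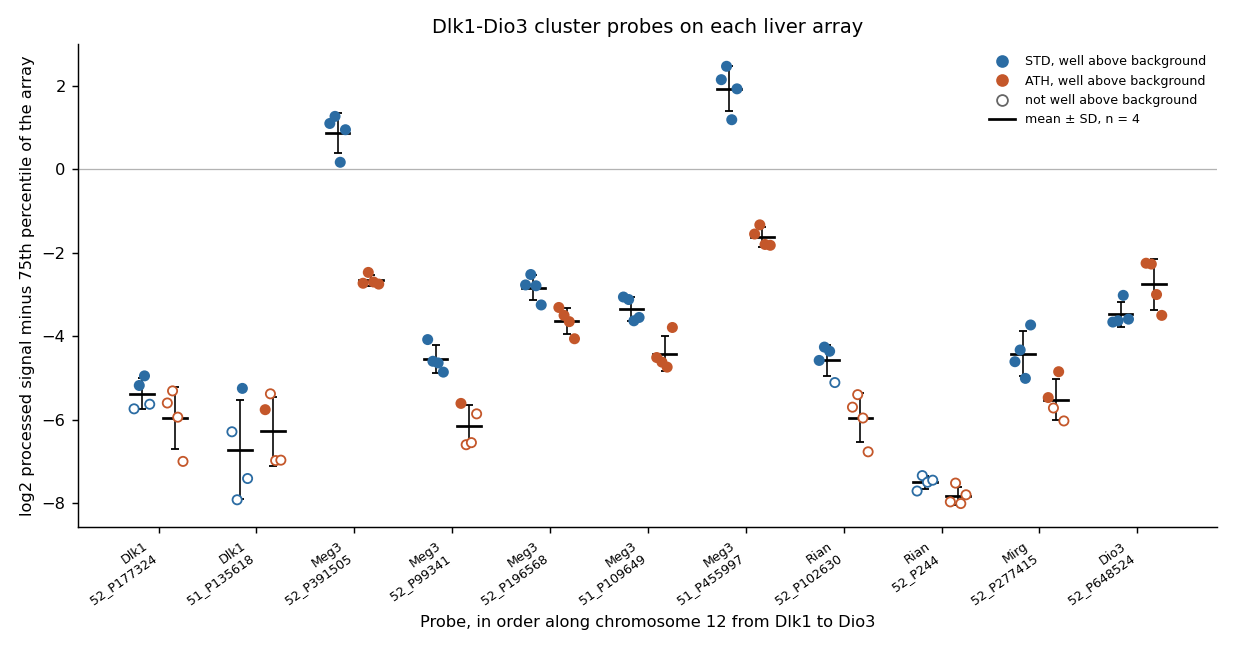
Scaled log2 signal (vertical axis, log2 units relative to the 75th percentile of each array) of the 11 member probes (horizontal axis, in chromosome order) in each STD (blue) and ATH (orange) liver; filled points were well above background and black lines give the mean ± SD (n = 4). The 2 bright Meg3 probes fall from means of 1.94 and 0.87 to -1.63 and -2.66, and Dio3 alone among the detected probes has the higher ATH mean, -2.75 against -3.48.

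Rian and Mirg, the maternally expressed transcripts downstream of Meg3, had dim signals that were lower on average in ATH livers. Rian (A_52_P102630) had scaled log2 signals of -4.58, -4.26, -4.36 and -5.11 in STD livers and -5.70, -5.40, -5.96 and -6.77 in ATH livers. The ATH livers all lay below the STD livers, but Rian was well above background on 3 STD arrays and on 0 ATH arrays, so the ATH values are near background. With this scaling a floored fold of STD over ATH was 2.11. It takes for each ATH array the higher of the probe's own value and the lowest signal of any spot that was well above background. This is not a strict bound, since a higher signal at this probe can still fail to be well above background. The STD mean also includes STD replicate 4, which was not well above background. The measured means were -4.58 ± 0.38 and -5.96 ± 0.59 (SD, n = 4 each), a difference of -1.38 (SE 0.30). The floored fold does not carry over to other processing: the difference was -0.93 without scaling and -0.43 with the normexp background correction described below. Unscaled, the groups met: 13.0 in STD replicate 4 against 13.1 in ATH replicate 2. A second Rian probe (A_52_P244, chr12:107180614-107180673 in mm7) was not well above background on any array and gives no fold.

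Mirg (A_52_P277415) had scaled log2 signals of -4.61, -4.33, -5.01 and -3.73 in STD livers and -5.47, -5.72, -4.85 and -6.03 in ATH livers. ATH replicate 3 lay above STD replicate 3, so the groups overlapped. The mean was -4.42 ± 0.54 against -5.52 ± 0.50 (SD, n = 4 each), a difference of -1.10 (SE 0.32), and 4 STD and 2 ATH arrays were well above background.

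Dio3, the paternally expressed deiodinase at the far end of the cluster, had the opposite sign. Its probe (A_52_P648524, chr12:107799167-107799226 in mm7) had scaled log2 signals of -3.66, -3.63, -3.02 and -3.59 in STD livers and -2.25, -2.27, -3.00 and -3.50 in ATH livers, all well above background. ATH replicates 1 and 2 lay above every STD liver, ATH replicate 3 lay level with the highest STD liver, and ATH replicate 4 fell among them. The mean was -3.48 ± 0.30 against -2.75 ± 0.61 (SD, n = 4 each), a difference of 0.72 (SE 0.30), 1.65-fold higher on the ATH diet, with the unscaled signal at 37.2 to 56.7 in STD livers and 62.3 to 129.8 in ATH livers. The unscaled values did not overlap, whereas the scaled ones did.

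Dlk1, the paternally expressed gene at the near end, was at the limit of what the arrays could measure on either diet. Its first probe (A_52_P177324) had scaled log2 signals of -5.74, -5.18, -4.95 and -5.63 in STD livers and -5.60, -5.31, -5.94 and -7.00 in ATH livers, and was well above background on 2 STD and 0 ATH arrays. Its second probe (A_51_P135618) had -6.29, -7.92, -5.25 and -7.41 against -5.76, -5.38, -6.98 and -6.97, with 1 array of each diet well above background. The groups overlapped on both and the mean differences were -0.59 (SE 0.36) and 0.45 (SE 0.62). A diet difference of Dlk1 was not detectable at this signal.

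Detection required a signal well above background, positive and significant, with no outlier flag, in 3 or more of the 4 livers of 1 diet. Of the 11 member probes 8 were detected, for Meg3 (5), Rian (1), Mirg (1) and Dio3 (1). Of the 8, 3 (Meg3 A_52_P99341, Rian and Mirg) passed through the STD arrays alone, which favours a lower value on the ATH diet. The 7 detected probes of maternally expressed genes were lower in ATH livers, as were 67.1% of all detected probes, and the 1 detected probe of a paternally expressed gene was higher, so that maternal against paternal expression comes down to 3 genes against 1. Of the 8 detected probes, 6 had every ATH liver below every STD liver, against 13.8% of all 31056 detected probes, 0 had every ATH liver above every STD liver, against 6.01%, and 6 had a difference of -1 or less, against 2.49%. At a false discovery rate of 1% 2 were called by limma, both lower, against 0.528% of detected probes in either direction (0.335% lower and 0.193% higher), and at 5% 6 were called, all lower, against 7.99% in either direction, 4.94% lower and 3.06% higher. These shares come from the contrast by which the cluster was chosen, and nothing is read from them. Without scaling, 3 of the 8 had every ATH liver below every STD liver (the 2 bright Meg3 probes and A_52_P99341), against 1.69% of detected probes. Dio3 had every ATH liver above every STD liver there, and the share of all detected probes in that direction was not computed.

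Leaving out the scaling shifts every member by about the same amount, and so bears most on those with small differences. The 75th percentile was 0.45 higher on ATH than on STD arrays (log2), that of the 10 spike-in probes (their median) 0.14 higher, and the median difference over all detected probes was -0.15 after scaling by the percentile, 0.16 with spike-in scaling and 0.30 without scaling. The difference of the brightest Meg3 probe was -3.25 with spike-in scaling and -3.12 without scaling, and stayed between -3.81 and -3.12 over 18 alternatives. Background correction by normexp, which adds an offset of 50 to every signal, moved the dim probes toward 0: Rian to -0.43, Mirg to -0.51, Meg3 A_52_P99341 to -0.64 and Dio3 to 0.15. No member changed sign under any alternative in which it was tried.

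**Figure D2:**
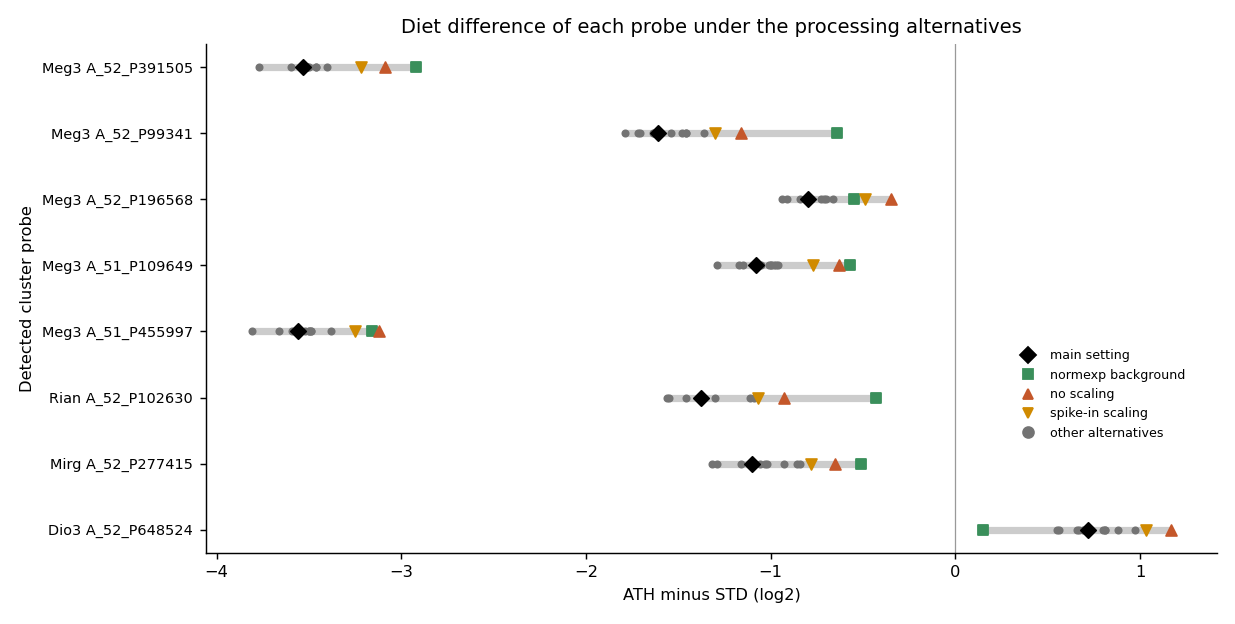
ATH minus STD difference (horizontal axis, log2) of the 8 detected member probes (vertical axis) under the main setting (black diamonds) and each alternative, with grey bars from the lowest to the highest value. The bright Meg3 probes keep between -3.81 and -2.92, whereas normexp brings Rian to -0.43 and Dio3 to 0.15; no bar crosses 0.

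The start of Meg3 is shown because Meg3 lies first in the maternal series of RNAs and had the largest difference. The RefSeq window chr12:109540746-109541045 (GRCm38.p6, plus strand, 250 bases before to 50 after the start) is printed with the searched motifs in capitals.
Meg3 promoter: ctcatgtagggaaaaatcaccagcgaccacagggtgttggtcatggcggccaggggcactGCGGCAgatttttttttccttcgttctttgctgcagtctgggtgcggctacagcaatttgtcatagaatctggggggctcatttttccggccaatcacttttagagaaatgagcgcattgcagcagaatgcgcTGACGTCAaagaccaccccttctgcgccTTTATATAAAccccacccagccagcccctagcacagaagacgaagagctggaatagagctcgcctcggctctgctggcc
Motifs were searched on both strands. The window held 1 cAMP response element (TGACGTCA) starting at position -57 from the start, a sequence present in 1.79% of 32841 promoter windows of the same length. It also held 1 TGCCGC, the recognition sequence of the imprinting factor ZFP57, read on the minus strand at -190 and present in 11.61% of windows, and TATAAA on both strands in overlapping copies, present in 13.62%. A second Meg3 start downstream, with the window chr12:109545148-109545447, held none of these. The windows of Rian and Mirg held none of them, that of Dlk1 held only the CRE core TGACG (in 20.82% of windows) and that of Dio3 held TATAAA. The number of CG dinucleotides was 13 in the first Meg3 window, 0 for Rian, 10 for Mirg, 9 for Dlk1 and 25 for Dio3, against a median of 7 over all windows. Of all windows 62.08% held fewer than the first Meg3 window, 56.52% fewer than Mirg, 54.21% fewer than Dlk1 and 81.57% fewer than Dio3. The Dlk1 window, chr12:109452573-109452872, begins after the start of the gene's RefSeq span at 109452485. These matches describe the letters of the windows, and no binding or methylation was measured.

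The array held 6 probes inside the interval that carry no member's name. Whether they lie within a member's transcript was not determined, since no annotation of mm7 was used: AK086774 was listed between both Rian probes and AK049674 shortly before them. Of these 3 were detected, and by limma 0 passed 1% or 5% (0 at an unadjusted p under 0.05, and 0 by the methods' test with unequal variances). Dio3os, the antisense transcript of Dio3, had a scaled log2 signal of -2.56 ± 0.53 on the STD diet and -2.52 ± 0.50 on the ATH diet (SD, n = 4 each), a difference of 0.04 (limma adjusted p = 0.944). An unnamed transcript (NAP070880-1, chr12:107348117-107361914 in mm7), which lies between Mirg and Dio3, measured 0.39, 0.55, 0.42 and 0.84 in STD livers and 0.55, 0.68, 0.18 and 0.42 in ATH livers, a difference of -0.09 (limma adjusted p = 0.726). AK049674 was -5.30 ± 0.11 against -5.01 ± 0.33 (SD, n = 4 each; limma adjusted p = 0.295), a difference of 0.29 that did not pass the test. The probes for AK086774, B830012L14Rik and 4930511J24Rik were not detected.

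The flanking genes were called about as often as all detected probes at 5%. Within 2 Mb of the outermost member probes the array held 104 other probes, of which 90 were detected for 58 genes. Of these 1 was called at 1% (1.111%, against 0.528% of all detected probes) and 7 at 5% (7.778%, against 7.99%), 4 lower and 3 higher, and their median difference was -0.08. Unnamed transcripts aside, the nearest genes on the Dlk1 side were Wdr25, a WD-repeat protein, Wars, the tryptophanyl-tRNA synthetase, and Slc25a47, a mitochondrial carrier of liver. Slc25a47 was 6.32 ± 0.37 on the STD diet and 6.45 ± 0.27 on the ATH diet (SD, n = 4 each; limma adjusted p = 0.731). The probes of Wdr25 disagreed: A_52_P345078 fell by 0.66 (SE 0.15, limma adjusted p = 0.0368, or 0.0525 with the replicate number as a block), whereas A_52_P637418 had a difference of 0.30 (limma adjusted p = 0.241). The nearest on the Dio3 side were Ppp2r5c, a regulatory subunit of protein phosphatase 2A, Dync1h1, the dynein heavy chain, and 1700001K19Rik, and their 7 probes had limma adjusted p from 0.197 to 0.73.

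The flanking gene called at 1% was Cyp46a1, the enzyme that 24-hydroxylates cholesterol, 1100 kb from the cluster on the Dlk1 side. Its scaled log2 signal was -1.86 ± 0.05 on the STD diet and -3.12 ± 0.26 on the ATH diet (SD, n = 4 each), a difference of -1.26 (SE 0.15, limma adjusted p = 0.00607), 2.40-fold lower. With 1 array left out it passed 1% only without ATH replicate 2 (limma adjusted p from 0.0048 to 0.0237 over the 8 fits), and the adjusted p was 0.0302 with the replicate number as a block, 0.0192 with spike-in scaling and 0.0136 without scaling.

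**Figure D3:**
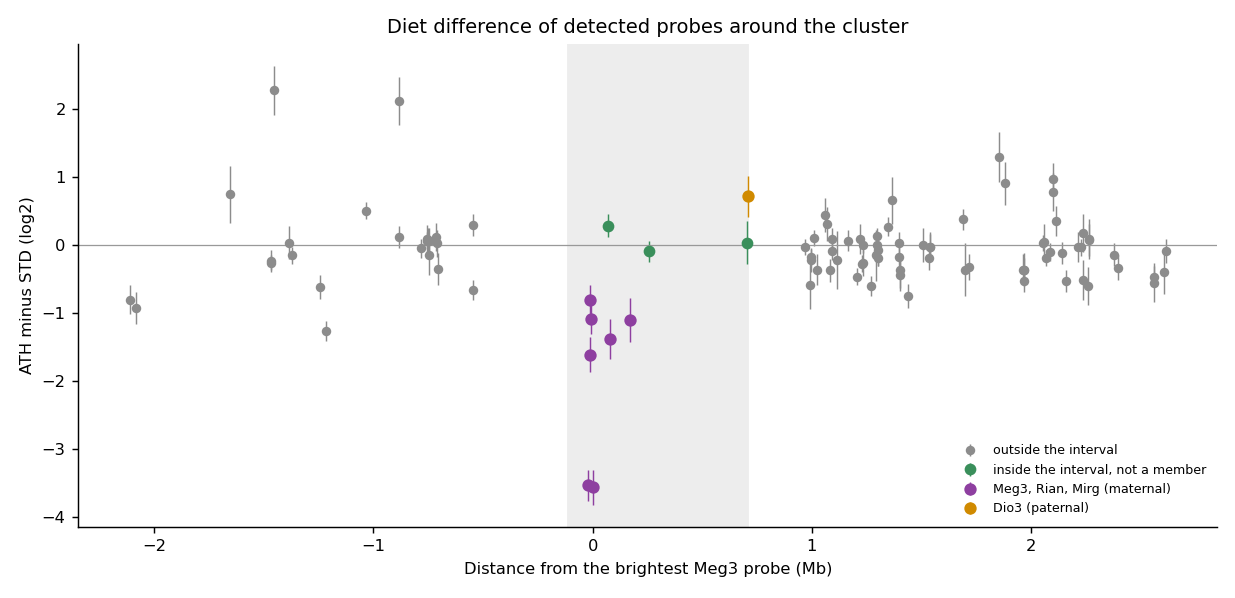
ATH minus STD difference (vertical axis, log2; bars are the SE of the fit) of detected probes against their distance from the brightest Meg3 probe (horizontal axis, Mb); the grey band spans the member probes. The largest decreases are the 2 Meg3 probes at -3.56 and -3.53, and the flanking probes run from -1.26 (Cyp46a1) to 2.28 (Setd3).

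The diet difference was also measured for genes imprinted elsewhere in the genome. Of 21 such genes 18 were detected, 9 lower and 9 higher in ATH livers, with a median difference of 0.00 (-0.11 with normexp, 0.31 with spike-in scaling, 0.45 without scaling). By limma 0 passed 1% and 4 had an unadjusted p under 0.05. At 5% only Mest passed, a paternally expressed hydrolase, which rose by 0.84 (SE 0.21, adjusted p = 0.0444, or 0.0801 with the replicate number as a block) and is named here after its value was seen. H19, the maternally expressed non-coding RNA of the Igf2 domain, was -3.49 ± 0.14 on the STD diet and -3.47 ± 0.34 on the ATH diet (SD, n = 4 each; limma adjusted p = 0.962). Igf2r, a maternally expressed receptor, was 2.42 ± 0.08 and 2.41 ± 0.18 (limma adjusted p = 0.951), and Peg3, a paternally expressed zinc finger gene, was -4.14 ± 0.22 and -4.96 ± 0.52 (limma adjusted p = 0.0786).

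The genes that set or read imprints and DNA methylation were detected for all 20 listed, 8 lower and 12 higher, with a median of 0.05 (-0.02 with normexp, 0.50 without scaling). By limma 0 passed 1%, and 4, the same number as at an unadjusted p under 0.05, passed 5%. They are named here after their values were seen. Tet1, a 5-methylcytosine dioxygenase, fell by 0.69 (SE 0.15, adjusted p = 0.0352), and Aff3, a protein that binds the control region of the cluster, fell by 0.76 (SE 0.19, adjusted p = 0.0478). Uhrf1, which recruits Dnmt1 to replicating DNA, rose by 1.29 (SE 0.27, adjusted p = 0.0303), and Dppa3, a protector of maternal methylation marks, rose by 1.90 (SE 0.44, adjusted p = 0.0379). Dppa3 was well above background on 4 ATH arrays but 1 STD array, so it passed detection through the ATH arrays alone and its STD mean rests largely on values near background. By the methods' test with unequal variances 0 genes of any list passed 5% after adjustment. With the replicate number as a block these 4 adjusted p were 0.0601, 0.0858, 0.0669 and 0.0649. Dnmt1, the maintenance methyltransferase, had a difference of 0.23 (limma adjusted p = 0.337), Trim28, the corepressor that ZFP57 recruits, of -0.11 (limma adjusted p = 0.603), and Zfp57 itself of -0.41 (limma adjusted p = 0.232).

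Dio3 acts on thyroid hormone, and 9 of 10 other genes of thyroid hormone action were detected, 8 lower and 1 higher in ATH livers, with a median of -0.59 (-0.28 with spike-in scaling, -0.14 without scaling). By limma 0 passed 1%, 2 passed 5% and 5 had an unadjusted p under 0.05, and the 2 are named here after their values were seen. Dio1, the hepatic deiodinase, fell by 0.68 (SE 0.13, adjusted p = 0.0229, or 0.0508 with the replicate number as a block). Me1, malic enzyme, a thyroid hormone target that also serves lipid synthesis, fell by 1.26 (SE 0.23, adjusted p = 0.0215). Thrsp, another such target, had a difference of -1.34 (SE 0.40, adjusted p = 0.0695) with overlapping groups, and the receptors Thra and Thrb had differences of -0.15 and -0.24 (limma adjusted p = 0.748 and 0.323).

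Dlk1 belongs to the Notch ligand family, and 10 of 11 Notch pathway genes were detected, 1 lower and 9 higher, with a median of 0.43 (0.20 with normexp, 0.88 without scaling). By limma 0 passed 1%, 2 passed 5% and 5 had an unadjusted p under 0.05, and the 2 are named here after their values were seen. The Notch target Hey1 rose by 1.09 (SE 0.17, adjusted p = 0.0137) and the related repressor Heyl rose by 0.68 (SE 0.13, adjusted p = 0.0262). Hes1, another Notch target, had a difference of 0.04 (limma adjusted p = 0.955), and the receptors Notch1 and Notch2 had differences of -0.22 and 0.04 (limma adjusted p = 0.418 and 0.835).

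Markers of the cells of liver were set beside the Meg3 decrease, and their part in it was not tested. The 8 sinusoidal endothelial markers had a median of 0.27 (0.58 with spike-in scaling, 0.72 without scaling), with 1 higher at 5% (Lyve1, a hyaluronan receptor, by 1.21, limma adjusted p = 0.0361) and 0 lower (2 at an unadjusted p under 0.05), and a summed level of 22.21 to 30.97 in STD and 22.95 to 36.35 in ATH livers in units of the 75th percentile. The endothelial receptor Kdr was 1.65 ± 0.24 on the STD diet and 1.64 ± 0.48 on the ATH diet (SD, n = 4 each; limma adjusted p = 0.994). The 9 stellate cell markers had a median of 0.27 (0.58 with spike-in scaling, 0.71 without scaling), with 1 higher at 5% (Ngfr, a neurotrophin receptor, by 0.60, limma adjusted p = 0.039, or 0.0751 with the replicate block), 0 lower (3 at an unadjusted p under 0.05) and a summed level of 11.05 to 12.47 against 15.66 to 19.12. Lrat, the retinol-storing enzyme of stellate cells, was 0.07 ± 0.37 against 0.43 ± 0.31 (limma adjusted p = 0.324).

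Macrophage markers had the highest median of the lists. All 9 were higher on average, with a median of 1.54 and a summed level of 90.91 to 106.1 in STD against 175.3 to 743.7 in ATH livers, and 4 passed 5%. Of these Cd5l, a scavenger protein secreted by macrophages, passed 1% (5.01 ± 0.17 against 6.70 ± 0.47, SD, n = 4 each, limma adjusted p = 0.00899), but with 1 array left out only without ATH replicate 2 (limma adjusted p from 0.00167 to 0.032 over the 8 fits), and not with the replicate number as a block (0.0366), quantile normalization (0.0127) or spike-in scaling (0.013). Marco, a scavenger receptor, was higher by 3.43 (limma adjusted p = 0.0352), Lyz2, lysozyme, by 2.27 (limma adjusted p = 0.0339) and Cd68, a lysosomal protein, by 1.92 (limma adjusted p = 0.0461, or 0.0551 with the replicate block). Of the 5 cholangiocyte markers only Sox9 passed 5%, higher by 1.04 (limma adjusted p = 0.039), with a list median of 0.42 (0.73 with spike-in scaling, 0.86 without scaling) and a summed level of 10.94 to 16.05 against 17.29 to 92.8. Spp1, osteopontin, which macrophages also make, is by far the brightest of the 5 and makes up most of this sum. It was 3.56 ± 0.25 against 5.07 ± 1.23 (SD, n = 4 each; limma adjusted p = 0.103), while Krt19 and Epcam had differences of 0.16 and -0.09 (limma adjusted p = 0.648 and 0.764). The 6 lymphocyte markers had a median of 0.33 (0.64 with spike-in scaling, 0.78 without scaling), with 0 past 5% and 3 at an unadjusted p under 0.05 by limma, and a summed level of 1.015 to 1.27 against 0.8657 to 3.756.

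The 8 hepatocyte markers had a median of -0.32 that turned to 0.13 without scaling and 0.03 with quantile normalization, with 0 past 1% by limma, 4 at an unadjusted p under 0.05 and 2 lower at 5%, the amino acid enzymes Tat (by 1.05, limma adjusted p = 0.0104) and Ass1 (by 0.70, limma adjusted p = 0.0449, or 0.0682 with the replicate block), and a summed level of 2596 to 2695 in STD and 1676 to 2336 in ATH livers. Alb was 10.33 ± 0.02 against 9.91 ± 0.23 (SD, n = 4 each; limma adjusted p = 0.0894). Of 5 fetal liver markers 2 were detected. Afp, alpha-fetoprotein, was -0.90 ± 0.47 on the STD diet and -1.09 ± 0.45 on the ATH diet (limma adjusted p = 0.684), while Gpc3, Igf2bp1 and Lin28b were not detected.

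Markers of organs known to express the cluster were also read. The pancreas list (5 of 6 detected) had a summed level of 0.419 to 0.5789 in STD and 0.2862 to 0.4369 in ATH livers, in units of the 75th percentile, and a median of -0.28 that was 0.03 with spike-in scaling and 0.16 without scaling. Only Gcg, glucagon, passed 5% in it, lower by 0.86 (limma adjusted p = 0.0102). The adrenal list (4 of 5 with a probe, all detected) had a summed level of 0.3053 to 0.4385 against 0.3025 to 0.3523 and a median of -0.22 (0.09 with spike-in scaling, 0.22 without scaling), and the skeletal muscle list (3 of 4 detected) 0.4557 to 0.5187 against 0.3407 to 0.4881 and a median of -0.36 (-0.05 with spike-in scaling, 0.09 without scaling), with 0 past 5% in either by limma (1 and 0 at an unadjusted p under 0.05).

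**Figure D4:**
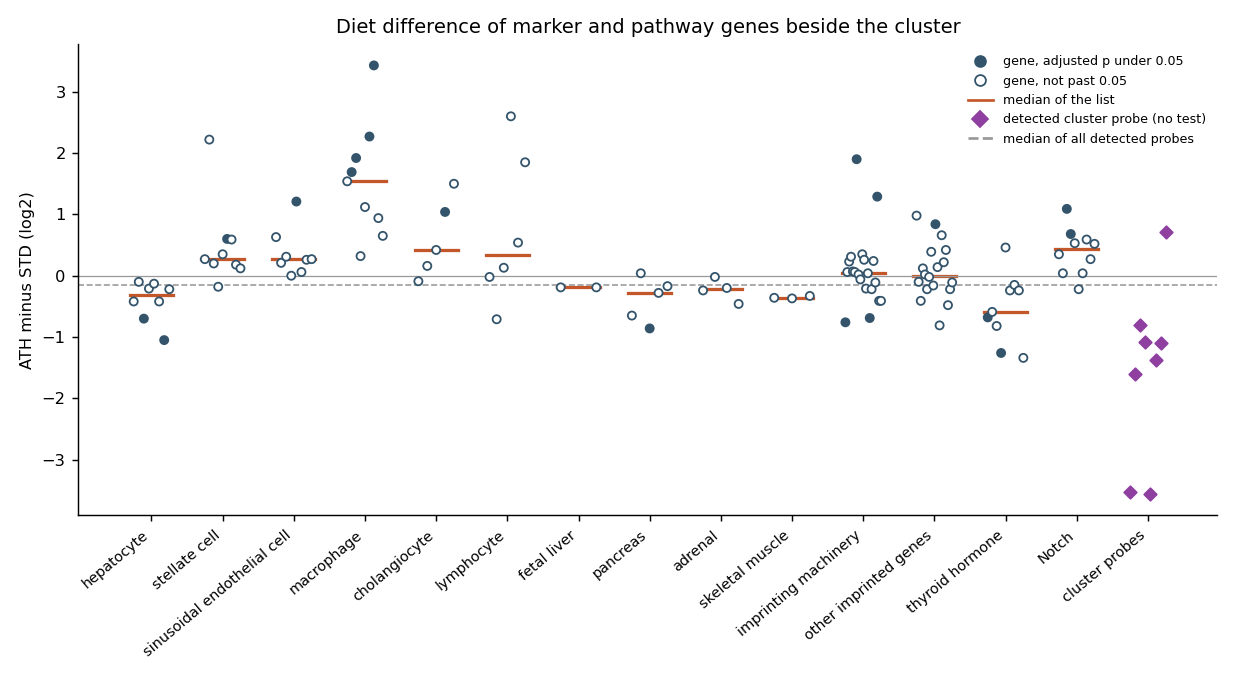
ATH minus STD difference (vertical axis, log2) of the detected genes of each list (circles, filled where the limma adjusted p was under 5%; orange bars are list medians; the dashed line is the median of all detected probes, -0.15) and of the 8 detected cluster probes (diamonds, no test). The bright Meg3 probes at -3.56 and -3.53 lie below every listed gene, and the macrophage list has the highest median, 1.54.

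The profile of Meg3 over the 8 livers was compared with that of 16546 other genes, 1 detected probe each, after each probe was centred on its own mean. The measure of likeness was the root mean square difference in log2 units, which was 0.11 for the second bright Meg3 probe. The closest genes were Htra4, a secreted serine protease (0.52), Hmgcs1, the cytosolic enzyme that makes HMG-CoA for sterols (0.60), Msmo1, the sterol C4-methyl oxidase (0.64), Raet1e, a ligand of the natural killer receptor NKG2D (0.67), and Idi1, the isopentenyl diphosphate isomerase (0.69). Idi1 had scaled log2 signals of 3.90, 4.33, 4.89 and 5.70 in STD livers and 1.36, 1.70, 1.09 and 0.85 in ATH livers. Its highest STD liver was replicate 4, as for the other 4 of these genes, whereas Meg3 was highest in STD replicate 2. Htra4 was well above background on 4 STD arrays but 1 ATH array, so its place rests in part on ATH values near background. The other members lay farther off, at 1.10 to 1.43 for the dim Meg3 probes, Rian and Mirg and at 2.22 for Dio3. Placed among the compared genes, A_52_P99341 would rank 73, Rian 113, A_51_P109649 234, Mirg 269, A_52_P196568 556 and Dio3 15194. The measure depends on the size of the diet difference, by which the cluster was chosen. Members with a smaller difference therefore lie farther off, and nothing is read from their place.

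**Figure D5:**
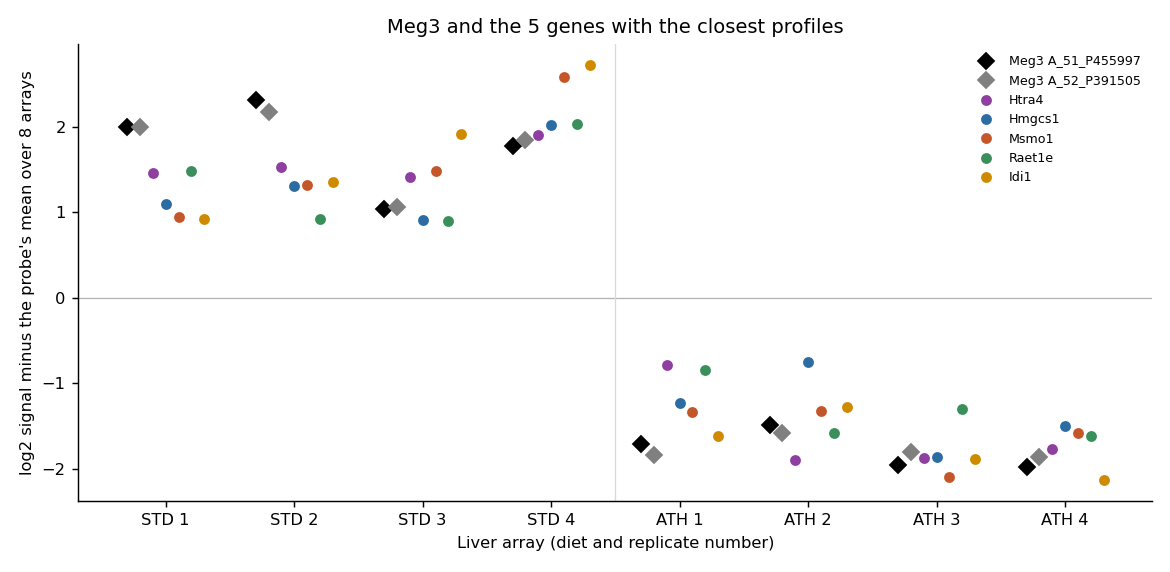
Log2 signal minus the probe's own mean over the 8 arrays (vertical axis) in each liver (horizontal axis, diet and replicate number) for the 2 bright Meg3 probes (diamonds) and the 5 genes closest to them (circles). All 7 probes are above 0 in STD livers and below 0 in ATH livers, which for the 5 genes follows from their choice by closeness to Meg3. The Meg3 probes differ from each other by a root mean square of 0.11 against 0.52 to 0.69 for the other genes.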

How the data were processed

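Liver RNA of 8 mice, 4 per diet, was hybridized to Agilent whole mouse genome arrays with 1 dye (Cy3), with groups taken from the diet label. The authors scanned the arrays with Agilent Feature Extraction version 9.5, and the deposited intensity values are background-subtracted and detrended processed signals that are not scaled between arrays. Background subtraction leaves dim probes with large relative error, and the number of arrays limits the precision. A second deposited file holds log2 values from GeneSpring, of which 99.72% differ from the log2 processed signal only by an offset per array and another per probe (within 0.001). Their column medians run from -0.0394 to 0.164, they serve as an alternative, and their baseline is not given in the sources used here.

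Control spots and outlier spots were left out, spots of a probe were averaged, and log2 signals were scaled to the 75th percentile of each array. The diets were compared by limma (version 3.58.1, under R 4.3.3) with moderated two-sided statistics adjusted after Benjamini-Hochberg over 31056 detected probes, at 1% and, beside it, 5%. Folds are antilogs of these differences. Summaries used Python version 3.11.15, and the steps were tested on simulated data. The members, gene lists and comparisons were chosen with earlier results of these data known. Named are all members, the nearest 3 flanking genes on each side that have a name in RefSeq, those called at 1%, up to 3 markers per list and the 5 genes closest to Meg3. Of 41174 probes, 32719 were named through RefSeq by accession, symbol or synonym, and a gene in a list is its brightest probe. Promoter windows and gene positions are from RefSeq (GRCm38.p6), for 5 of 6 members.

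Replicate numbers mark the position of an array on its slide. Deviations of same-numbered arrays from their diet means correlated at 0.1002, 0.2295, 0.1816 and 0.1763 across probes, each over 0.1. Those of other numbers ran from -0.2511 to 0.1753, the highest for STD 2 with ATH 1. On the same-number values position was also fitted as a replicate block. Other alternatives were the scaling, the background correction, the detection filter, the test, the deposited table and each array left out. Each array is a separate mouse.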

Additional observations from a re-analysis of the deposited data

Results flagged for a closer look

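In groups of 4 livers, a sample was marked when its gap to the nearest other sample took more of its diet group's range than Dixon's critical value for 4 samples allows. Chance marks about 1 in 20 groups, and 3 of the 22 groups examined were marked here. The scaled log2 signal of Meg3 A_52_P391505 was -2.47 in ATH replicate 2, above the other 3 ATH livers at -2.75 to -2.70, a gap of 0.831 of the range. Dio3 A_52_P648524 was -3.02 in STD replicate 3, above the other 3 STD livers at -3.66 to -3.59, a gap of 0.885 of the range. AK049674, a transcript inside the interval, was -5.50 in ATH replicate 1, below the other 3 ATH livers at -4.86 to -4.84, a gap of 0.969 of the range.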

How the results depend on the processing

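The 8 detected members kept their sign under every alternative in which they were tried. Without scaling the brightest Meg3 probe (A_51_P455997) moved to -3.12, A_52_P391505 to -3.09, A_52_P99341 to -1.16, A_51_P109649 to -0.63 and A_52_P196568 to -0.35, which was -0.49 with spike-in scaling. With normexp A_52_P391505 was at -2.92, A_52_P99341 at -0.64, A_51_P109649 at -0.57, Rian at -0.43, Mirg at -0.51 and Dio3 at 0.15, since the offset compresses dim signals. With 1 array left out the brightest Meg3 probe ranged from -3.81 to -3.38, Mirg from -1.32 to -0.86 and Dio3 from 0.55 to 0.97. Rian, near background on the ATH side, ranged from -1.56 to -1.11 over 5 such fits and was not detected without STD replicate 1, 2 or 3. Fitting the pairing as a replicate block left the member differences as they were and took the calls at 1% among all detected probes from 164 to 0, among flanking genes from 1 to 0 and among listed genes from 1 to 0. Over all detected probes 253 were called with detection on all 8 arrays, 37 without a filter, 488 without scaling, 454 with normexp, 82 with spike-in scaling, 0 by the methods' test with unequal variances (22 at 5%, 7105 at an unadjusted p under 0.05), 2482 at 5%, and 5 to 1051 with 1 array left out, the highest without ATH replicate 2 and the lowest without STD replicate 2 or 3. The study's own run of an unequal-variance test, in GeneSpring, did list genes at 1%, and that run was not repeated here. Of the limma calls at 5% over all detected probes, 38.24% were higher on the ATH diet in the main setting, 54.95% with the array median, 54.22% with quantile normalization, 86.44% with spike-in scaling, 94.92% without scaling and 18.92% with normexp. Flanking calls were 2 with detection on all 8 arrays, 3 with normexp, 0 without a filter, with spike-in scaling or by the methods' test, 7 at 5% and 0 to 2 with 1 array left out. Calls among listed genes were 4 with detection on all 8 arrays, 5 without scaling, 2 with normexp, 0 without a filter, with quantile normalization, spike-in scaling or the methods' test, 19 at 5% and 0 to 11 with 1 array left out. The cause of these shifts was not tested. Signals near background limit Rian, Mirg and Dlk1.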

Other observations

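The largest rises near the cluster, named here after their values were seen, lay on the Dlk1 side. Evl, an actin regulator 772 kb from the cluster, rose by 2.12 on the log2 scale (SE 0.35, limma adjusted p = 0.0173), from -0.22 ± 0.17 on the STD diet to 1.90 ± 0.81 on the ATH diet (SD, n = 4 each). Setd3, a histidine methyltransferase of actin 1343 kb from the cluster, had 3 detected probes that disagreed. A_52_P236777 rose by 2.28 (SE 0.36, limma adjusted p = 0.0142), whereas A_51_P439348 and A_52_P539540 had differences of -0.23 and -0.26 (limma adjusted p = 0.351 and 0.167). On the Dio3 side Ckb, the brain-type creatine kinase, rose by 0.98 on one probe (A_51_P425772, SE 0.23, limma adjusted p = 0.039), while the other (A_52_P385606) had a difference of 0.78 (SE 0.28, limma adjusted p = 0.113).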
